A study of Homo sapiens with 30 samples.

Results

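The B lineage transcription factors described here were PAX5, EBF1, TCF3, IKZF1, IKZF3, POU2AF1, POU2F2, SPI1, BACH2 and ETS1, 10 genes of the 60656 in the deposited tables. They were taken by gene symbol and read by RNA sequencing in lines derived from human diffuse large B cell lymphoma. The 30 libraries formed 10 groups of 3. In the first table, wild-type OCI-LY3, HT, OCI-LY19 and SUDHL5 cells were either untreated (0 h) or had spent 24 h with doxorubicin at 0.2 µM; the drug is an anthracycline, a topoisomerase II poison that breaks DNA. In the second table, OCI-LY19S is the drug-sensitive culture, kept without doxorubicin, and OCI-LY19R is the culture with acquired resistance, grown with 20 nM doxorubicin that was withdrawn 1 week before use. Each line is a single cell line and OCI-LY19R a single derived culture, and the labels name no drug-free 24 h control.

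These factors hold the B cell programme. TCF3 (whose products are the E proteins E12 and E47) and EBF1 start it and switch on PAX5, which keeps cells committed to the lineage and activates surface and signalling genes such as CD79A. IKZF1 (Ikaros) and IKZF3 (Aiolos) are zinc finger regulators, POU2F2 (OCT2) binds octamer sites together with its coactivator POU2AF1 (OBF1), SPI1 (PU.1) and ETS1 are ETS-domain factors, and BACH2 holds off plasma cell differentiation. ID2 and ID3 bind E proteins and keep them off DNA, while PRDM1 (BLIMP1), IRF4 and XBP1 act in the passage to plasma cells.

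RefSeq promoter windows of 300 bases, from 250 before to 50 after a transcription start (GRCh38.p14), were at hand for 6 of the 10 factors: EBF1, PAX5, TCF3, IKZF1, POU2F2 and BACH2. EBF1 and POU2F2 are shown because, among these 6, they had the largest fall and the largest rise after doxorubicin, and PAX5 because its direction differed between lines. The 250 bases before each start are printed, from 5′ to 3′ on the gene's own strand, at chr5:159097957-159098206 for EBF1, chr19:42132447-42132696 for POU2F2 and chr9:37034269-37034518 for PAX5, all on the minus strand. Capitals mark matches, on either strand, to motifs of the factors' own families: CAGGTG and CAGCTG (E proteins), GAGGAAGT (PU.1), CCGGAAGT (ETS1), ATGCAAAT (octamer), TGGGAA (Ikaros), and TCCC and GGGA with any 2 bases between them (EBF1).
EBF1: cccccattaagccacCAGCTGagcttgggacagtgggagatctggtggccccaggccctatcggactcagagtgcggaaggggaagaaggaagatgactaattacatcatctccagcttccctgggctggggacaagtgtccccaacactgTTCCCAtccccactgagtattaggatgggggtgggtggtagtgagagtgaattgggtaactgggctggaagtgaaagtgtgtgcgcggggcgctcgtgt
POU2F2: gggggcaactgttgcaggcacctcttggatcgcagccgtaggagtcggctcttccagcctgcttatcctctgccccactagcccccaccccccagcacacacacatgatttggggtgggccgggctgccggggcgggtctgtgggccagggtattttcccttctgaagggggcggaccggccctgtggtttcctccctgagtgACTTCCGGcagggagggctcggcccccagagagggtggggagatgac
PAX5: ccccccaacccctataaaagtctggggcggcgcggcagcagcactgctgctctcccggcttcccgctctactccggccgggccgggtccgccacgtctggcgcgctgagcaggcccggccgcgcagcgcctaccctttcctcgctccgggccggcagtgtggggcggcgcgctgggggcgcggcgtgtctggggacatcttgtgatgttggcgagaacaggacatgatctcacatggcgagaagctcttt
EBF1 held 1 E protein motif, which begins 235 bases before the start, and 1 Ikaros motif, 99 bases before it. POU2F2 held 1 ETS1 motif, 47 bases before the start and read on the opposite strand. PAX5, TCF3 and BACH2 held none of these 7 motifs. IKZF1 had more than 1 window. That at chr7:50304466-50304765 held the same pair as EBF1, CAGCTG 239 bases and TGGGAA 32 bases before the start, and its other windows held none. Among 35116 RefSeq windows of the same length, 17.9% held CAGCTG, 20.6% CAGGTG, 24.0% TGGGAA, 4.14% CCGGAAGT, 2.59% GAGGAAGT, 1.77% ATGCAAAT and 1.21% the EBF1 motif. TGGGAA and both ETS motifs contain the ETS core GGAA, which 95.5% of the windows held. A match describes letters and is not evidence of binding. The bases just after the start occur in a GENCODE 29 transcript of the gene for POU2F2, but not for EBF1, PAX5 or TCF3. The EBF1 and POU2F2 starts lie inside the gene spans given below. A window thus need not be the promoter of the transcripts counted, which was not tested.

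The libraries held 16063858 to 121759535 reads assigned to genes, recovered from the deposited FPKM values (fragments per kilobase of gene, scaled to library size); 1 OCI-LY19S library held the most. The B cell markers CD79A, CD79B, MS4A1 and CD22 were above 1 FPKM in every library, with the lowest value, 1.48 FPKM, for MS4A1. In the untreated libraries labelled OCI-LY3, IRF4 was at 0.171 ± 0.199 FPKM (SD, n = 3) and BCL6 at 78.2 ± 6.24 FPKM. OCI-LY3 is known as a line of the activated B cell type, which has high IRF4 and low BCL6, so these values go against the label; OCI-LY3 stands here for the libraries so labelled, and every result under that name rests on the label. The labels call the replicates independent experiments, but those of SUDHL5 differed little: the median over genes of the between-replicate chi-square per degree of freedom was 1.28 at 0 h and 1.88 at 24 h, against 4.70 to 12.8 in the other groups. P-values measure the spread between samples, pooled per gene over all groups of the same fit. Those for SUDHL5 therefore also rest on the spread in the other lines. In turn, the small spread in SUDHL5 lowers the pooled spread behind the p-values of the other 3 lines, which can make these too small. The spread between samples may in part be technical. Of the genes called at 24 h, the share that was higher moved with the scaling, from 73.9% to 51.5% in OCI-LY3 and from 70.9% to 55.9% in HT after median-of-ratios scaling, and from 59.3% to 44.7% in OCI-LY19 after quantile normalization. In SUDHL5 it went from 48.4% to 38.1% on the TPM scale. The median log2 change of all genes in OCI-LY3 went from 0.16 to 0.01 with median-of-ratios scaling, so factors that fell there lay further below the median gene than their change from 0 h.

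**Figure D1:**
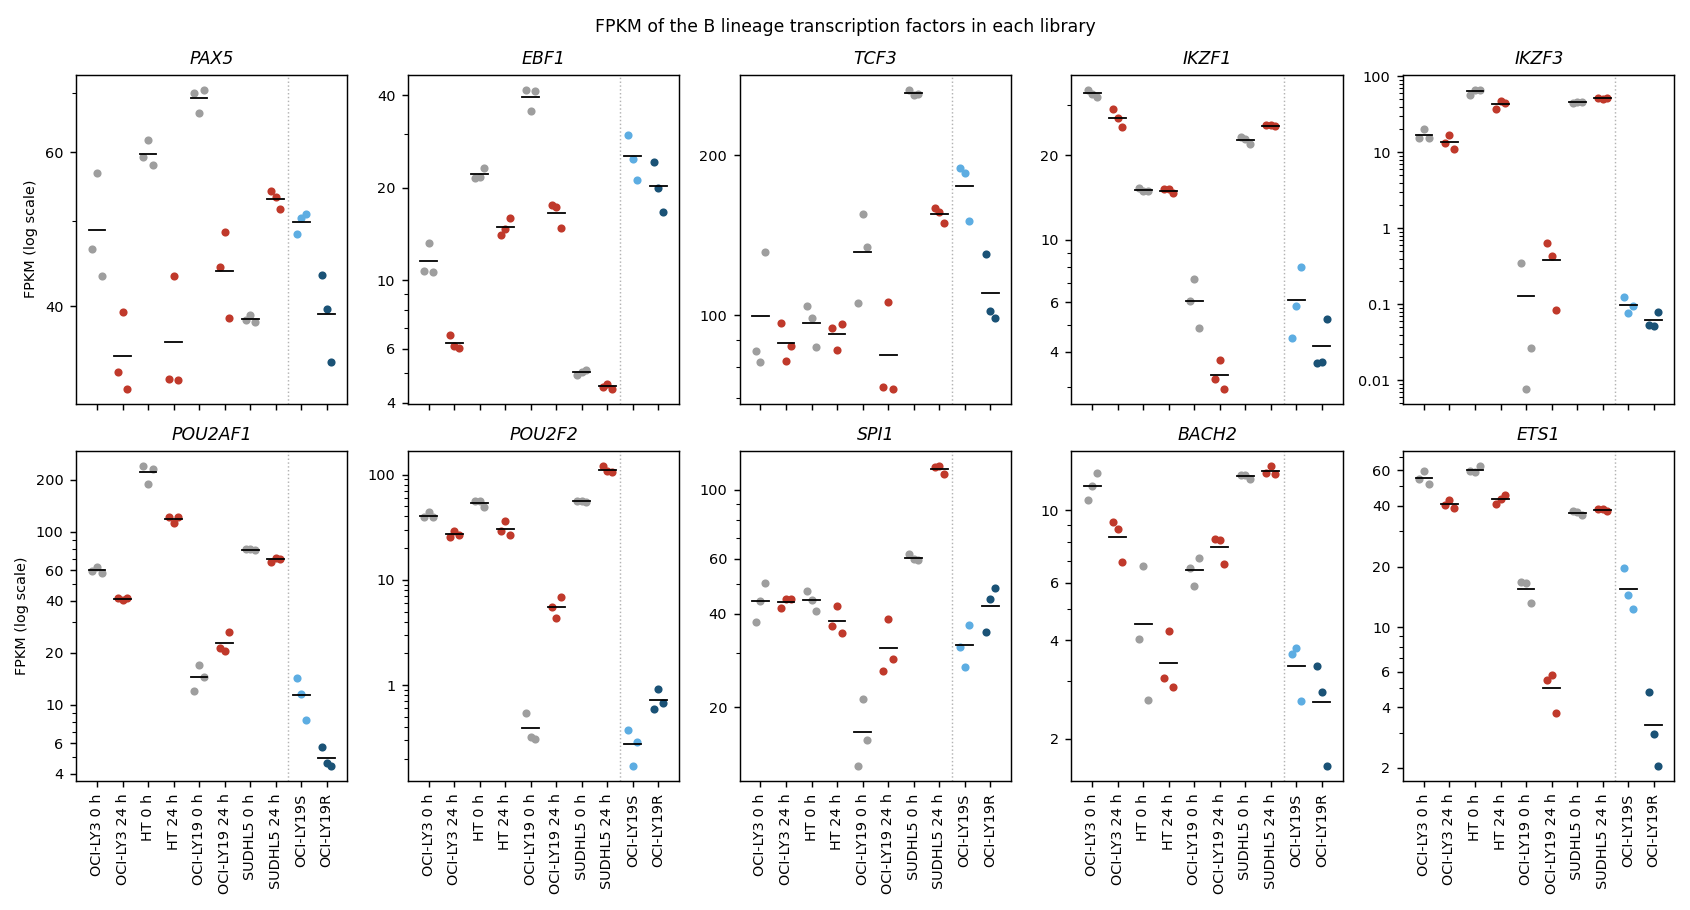
FPKM (log scale) of each factor in all 30 libraries: grey points are 0 h, red points 24 h in 0.2 µM doxorubicin, light blue OCI-LY19S and dark blue OCI-LY19R, with a bar at each mean of 3; the dotted line separates the tables, which were normalized separately. IKZF3 and POU2F2 lie below 1 FPKM in untreated OCI-LY19, and PAX5, POU2F2 and SPI1 are higher at 24 h in SUDHL5.

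The untreated lines differed in how much of each factor they carried. All 10 factors passed a moderated F test over the 4 untreated lines (limma, Benjamini-Hochberg adjusted), as did 90.5% of the 17645 genes tested. By pairs of lines, 7 of 10 factors differed between OCI-LY3 and HT (62.1% of all genes), 10 between OCI-LY3 and OCI-LY19 (62.8%), 9 between OCI-LY3 and SUDHL5 (66.0%), 9 between HT and OCI-LY19 (64.4%), 9 between HT and SUDHL5 (67.0%) and 10 between OCI-LY19 and SUDHL5 (71.0%). OCI-LY19 stood at one end for most factors: it had the highest mean of PAX5 and EBF1, and the lowest of IKZF1, IKZF3, POU2AF1, POU2F2, SPI1 and ETS1.

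Among the factors that start and keep the programme, EBF1 spanned the widest range. It was at 41.8, 35.7 and 41.4 FPKM in OCI-LY19, 21.5, 21.7 and 23.3 in HT, 10.7, 13.2 and 10.7 in OCI-LY3, and 4.94, 5.03 and 5.12 in SUDHL5. No pair of lines overlapped, and all 6 pairs passed. PAX5 had means in the same order but closer together, at 69.1 ± 2.31 FPKM in OCI-LY19, 59.7 ± 1.98 in HT, 48.9 ± 7.04 in OCI-LY3 and 38.7 ± 0.378 in SUDHL5. OCI-LY19 and HT did not pass as different (adjusted p = 0.0906, limma), though every OCI-LY19 library lay above every HT library. The test pools the spread over all 24 libraries. The step from HT to OCI-LY3 (0.0206) was lost without OCI-LY3 replicate 1 (0.0696) or 3 (0.114) or HT replicate 2 (0.0643) and after median-of-ratios scaling (0.862), and the step from OCI-LY3 to SUDHL5 (0.0109) without OCI-LY3 replicate 2 (0.0902). TCF3 followed another order. It was highest in SUDHL5, at 262 ± 3.13 FPKM, 1.99 times the 132 ± 25.0 FPKM of OCI-LY19. OCI-LY3 (99.5 ± 27.6) and HT (96.8 ± 8.61) did not pass as different (adjusted p = 0.983). The step from OCI-LY19 to OCI-LY3 (0.0309) was lost without OCI-LY3 replicate 1 (0.129) or 2 (0.16) or OCI-LY19 replicate 2 (0.163) or 3 (0.0754).

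The Ikaros family members were unequal in OCI-LY19. IKZF1 was at 33.1 ± 0.998 FPKM in OCI-LY3, 22.6 ± 0.680 in SUDHL5, 15.0 ± 0.243 in HT and 6.05 ± 1.20 in OCI-LY19, and each line differed from the next. IKZF3 was at 63.6 ± 5.52 FPKM in HT, 45.5 ± 0.560 in SUDHL5 and 16.96 ± 2.89 in OCI-LY3, but at 0.353, 0.00770 and 0.0265 FPKM in the OCI-LY19 libraries. These stood for 126, 2 and 7 reads, most of them in the first library. The step from HT to SUDHL5 (adjusted p = 0.0119, limma) was lost after median-of-ratios scaling (0.131). The related IKZF2 (Helios) lay the other way round, at 31.4 ± 7.85 FPKM in OCI-LY19 against 0.987 ± 0.150 in HT, 3.13 ± 0.337 in OCI-LY3 and 3.25 ± 0.307 in SUDHL5.

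The octamer factor and its coactivator were both low in OCI-LY19. POU2F2 was at 0.547, 0.318 and 0.309 FPKM there, against a mean of 40.7 ± 2.62 in OCI-LY3, 53.9 ± 3.70 in HT and 55.9 ± 1.14 in SUDHL5. The mean in OCI-LY3, the next line up, was 104 times that of OCI-LY19, whereas HT and SUDHL5 did not pass as different (adjusted p = 0.710, limma). The step from HT to OCI-LY3 (0.00575) was lost after median-of-ratios scaling (0.355). POU2AF1 was at 220.2 ± 26.6 FPKM in HT, 78.9 ± 0.527 in SUDHL5, 59.9 ± 2.19 in OCI-LY3 and 14.5 ± 2.503 in OCI-LY19, and each step in that order passed the test. POU2F1 (OCT1), the widely expressed relative of POU2F2, was at 7.49 ± 1.09 FPKM in OCI-LY19 and had means of 6.02 to 13.1 FPKM in the other lines.

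Of the ETS factors, SPI1 was at 60.6 ± 1.38 FPKM in SUDHL5, 44.1 ± 3.26 in HT, 43.9 ± 6.31 in OCI-LY3 and 16.7 ± 4.20 in OCI-LY19. HT and OCI-LY3 did not pass as different (adjusted p = 0.956, limma). ETS1 was at 60.6 ± 2.14 FPKM in HT, 55.2 ± 4.31 in OCI-LY3, 37.0 ± 0.953 in SUDHL5 and 15.52 ± 1.97 in OCI-LY19. HT and OCI-LY3 did not pass as different here either (adjusted p = 0.273). BACH2 was at 12.7 ± 0.207 FPKM in SUDHL5, 11.9 ± 1.14 in OCI-LY3, 6.55 ± 0.630 in OCI-LY19 and 4.47 ± 2.08 in HT. SUDHL5 and OCI-LY3 did not pass as different (adjusted p = 0.688). The step from OCI-LY19 to HT (0.0145) was lost without HT replicate 3 (0.141) or OCI-LY19 replicate 3 (0.0531).

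After 24 h in doxorubicin, most of the factors fell in OCI-LY3 and HT, while the factors that changed moved in both directions in OCI-LY19 and SUDHL5. In OCI-LY3, 7 of the 10 factors fell and 0 rose, where 14.3% of all genes tested fell and 40.4% rose (54.7% in either direction). In HT, 6 of 10 fell and 0 rose, where 9.41% fell and 22.9% rose (32.3%). That fit did not pair the HT samples, and with the replicate number as a block SPI1 also passed as lower there (adjusted p = 0.0237, limma). In OCI-LY19, 5 fell and 3 rose, where 23.7% fell and 34.5% rose (58.2%). In SUDHL5, 1 fell and 3 rose, where 19.9% fell and 18.6% rose (38.5%). No factor rose in OCI-LY3 or HT at an unadjusted p below 0.05 or with voom on recovered reads either (0 in each). The median log2 change of the 10 factors was -0.44, -0.51, -0.22 and 0.11, in that order, beside 0.16, 0.06, 0.08 and 0.00 for all genes. The treated and untreated libraries did not overlap for 7 factors in OCI-LY3, 6 in HT, 7 in OCI-LY19 and 9 in SUDHL5, where 57.4%, 42.2%, 61.2% and 59.9% of all genes did not. These are limma moderated tests on log2(FPKM + 1), Benjamini-Hochberg adjusted over 17645 genes with a threshold of 0.05, and that scale understates the change of low genes. In bulk samples, fewer cells that express a gene and less of its RNA per cell cannot be told apart.

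**Figure D2:**
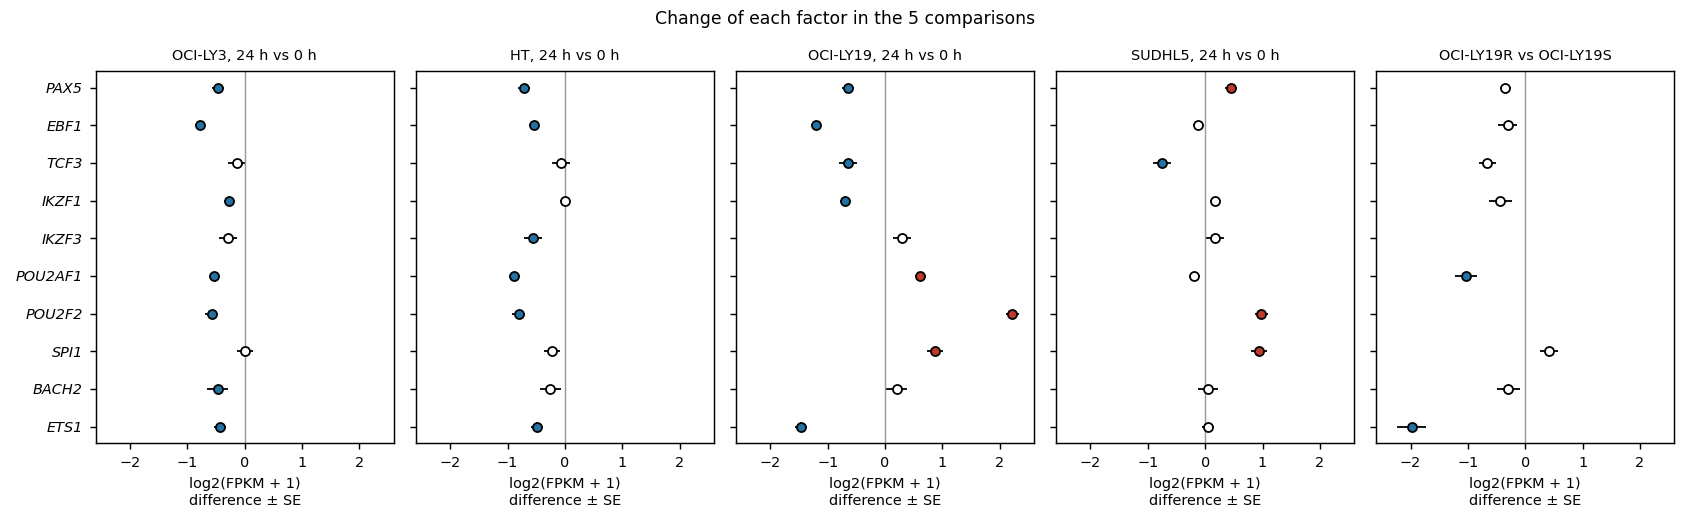
Difference in log2(FPKM + 1) ± SE of each factor in the 5 comparisons, treated minus untreated or OCI-LY19R minus OCI-LY19S; filled points passed the adjusted threshold (blue lower, red higher), open points did not, and IKZF3 and POU2F2 were under the filter on low values in the last panel. In OCI-LY3 and HT every filled point lies below 0, while POU2F2 and SPI1 lie above 0 in OCI-LY19 and SUDHL5.

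PAX5 fell in OCI-LY3, HT and OCI-LY19 and rose in SUDHL5. It went from 46.5, 56.8 and 43.4 to 33.7, 39.4 and 32.2 FPKM in OCI-LY3, from 59.2, 61.9 and 58.0 to 33.1, 43.4 and 32.96 FPKM in HT, and from 70.1, 66.5 and 70.7 to 44.3, 48.7 and 38.8 FPKM in OCI-LY19. All treated libraries lay below all untreated ones in these lines, with a log2 change of -0.46 ± 0.10 (SE, adjusted p = 0.000887, limma) in OCI-LY3, -0.71 ± 0.10 (5e-05) in HT and -0.65 ± 0.10 (2.62e-05) in OCI-LY19. In SUDHL5 PAX5 went from 38.6, 39.1 and 38.4 to 54.2, 53.3 and 51.6 FPKM, a log2 change of 0.45 ± 0.10 (adjusted p = 0.00197). SUDHL5, the line with the lowest untreated mean, thus had the highest mean of the 4 lines at 24 h. PAX5 lies on the minus strand at chr9:36833275-37034185 (GRCh38, GENCODE 29), where its exons overlap those of 1 gene on the other strand; the strand setting of the counting is not known, so reads of such partners may be shared.

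EBF1 had its largest fall in OCI-LY19. Its level went from 41.8, 35.7 and 41.4 to 17.6, 17.3 and 14.9 FPKM there, a log2 change of -1.21 ± 0.08 (adjusted p = 1.89e-10, limma), and no treated library reached an untreated one. In OCI-LY3 it went from 10.7, 13.2 and 10.7 to 6.67, 6.09 and 6.04 FPKM (log2 change -0.78 ± 0.08, adjusted p = 1.01e-07), and in HT from 21.5, 21.7 and 23.3 to 14.1, 14.7 and 15.96 FPKM (-0.54 ± 0.08, 4.44e-05). In SUDHL5, where it was lowest to begin with, EBF1 went from 5.03 ± 0.0889 to 4.52 ± 0.0886 FPKM, which did not pass (adjusted p = 0.232). EBF1 spans chr5:158695916-159099761 on the minus strand.

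TCF3 fell in SUDHL5 and OCI-LY19. It went from 266, 259.7 and 261 to 159, 156 and 149 FPKM in SUDHL5, the line with the most of it, and the groups did not overlap (log2 change -0.76 ± 0.16, adjusted p = 0.000884, limma). In OCI-LY19 it went from 106, 155 and 134 to 73.5, 106 and 72.7 FPKM, a log2 change of -0.65 ± 0.16 (adjusted p = 0.00192) in groups that overlapped. In OCI-LY3 the mean went from 99.5 ± 27.6 to 88.8 ± 7.51 FPKM (adjusted p = 0.533) and in HT from 96.8 ± 8.61 to 92.4 ± 5.47 FPKM (adjusted p = 0.843). The OCI-LY3 value passed after median-of-ratios scaling (log2 change -0.41, adjusted p = 0.0432), over a range of 0.0412 to 0.796 among all alternatives. TCF3 spans chr19:1609290-1652605 on the minus strand.

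Among the partners and inhibitors of E proteins, ID2 changed in both directions. TCF4, another E protein gene, fell in HT from 20.3 ± 1.58 to 13.6 ± 1.12 FPKM (log2 change -0.55 ± 0.08, adjusted p = 6.76e-05, limma), in OCI-LY19 from 14.8 ± 1.63 to 10.96 ± 0.720 FPKM (-0.40 ± 0.08, 0.000382) and in SUDHL5 from 2.03 ± 0.134 to 1.37 ± 0.0304 FPKM (-0.35 ± 0.08, 0.00212). ID2 rose in OCI-LY3 from 2.41 ± 0.310 to 6.89 ± 0.528 FPKM (1.21 ± 0.11, 1.44e-08) and fell in HT from 28.9 ± 3.41 to 17.4 ± 1.21 FPKM (-0.70 ± 0.11, 6.21e-05). In OCI-LY19 ID2 went from 35.8 ± 4.02 to 28.0 ± 4.43 FPKM (adjusted p = 0.00794), a call that was lost when the first untreated (0.0539) or first treated (0.0727) library was left out. ID3 rose in SUDHL5 from 25.6 ± 0.345 to 61.0 ± 1.35 FPKM (1.22 ± 0.22, 0.00022). In OCI-LY19 ID3 went from 159.6 ± 35.8 to 241 ± 50.1 FPKM (adjusted p = 0.0286), which no longer passed without untreated replicate 1 (0.144), untreated replicate 3 (0.0549), treated replicate 1 (0.061) or treated replicate 2 (0.131).

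IKZF1 fell in OCI-LY19, its lowest line, and in OCI-LY3, its highest. It went from 6.05, 7.25 and 4.85 to 3.20, 3.75 and 2.95 FPKM in OCI-LY19 (log2 change -0.70 ± 0.09, adjusted p = 1.12e-06, limma), with no overlap. In OCI-LY3 it went from 34.2, 32.95 and 32.2 to 29.1, 27.1 and 25.1 FPKM (-0.28 ± 0.09, 0.0105), a call lost without treated replicate 3 (adjusted p = 0.0568, over a range of 1.17e-05 to 0.0568). In HT its means were 15.0 ± 0.243 and 15.0 ± 0.281 FPKM, and in SUDHL5 22.6 ± 0.680 and 25.5 ± 0.122 FPKM (adjusted p = 0.158). IKZF1 spans chr7:50304068-50405101 on the plus strand, and its exons overlap those of 1 gene on the minus strand.

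IKZF3 fell in HT, its highest line, from 57.3, 66.6 and 67.0 to 36.9, 47.8 and 44.9 FPKM, with no overlap (log2 change -0.55 ± 0.16, adjusted p = 0.0103, limma). That call was lost without treated replicate 1 (0.0606), on the TPM scale (0.146) and with a pseudocount of 0.1 (0.366), over a range of 0.000271 to 0.366. In OCI-LY3 it went from 16.96 ± 2.89 to 13.7 ± 2.79 FPKM (adjusted p = 0.118), and it passed as lower without treated replicate 2 (0.0291) and after median-of-ratios scaling (0.00461). In OCI-LY19 it went from 126, 2 and 7 reads to 223, 140 and 27 reads (0.386 ± 0.283 FPKM), groups that overlapped (adjusted p = 0.122). There it passed as higher without untreated replicate 1 (0.0331) or treated replicate 3 (0.0191), over a range of 0.00503 to 0.676. In SUDHL5 the level went from 45.5 ± 0.560 to 51.2 ± 1.30 FPKM (adjusted p = 0.454). IKZF3 spans chr17:39757715-39864188 on the minus strand. IKZF2 fell in OCI-LY19 from 31.4 ± 7.85 to 11.9 ± 2.56 FPKM (log2 change -1.31 ± 0.16, adjusted p = 6.77e-07) and in SUDHL5 from 3.25 ± 0.307 to 1.44 ± 0.0198 FPKM (-0.80 ± 0.16, 0.000414). In OCI-LY3 IKZF2 rose from 3.13 ± 0.337 to 4.73 ± 0.886 FPKM (0.47 ± 0.16, 0.0167), a call lost without untreated replicate 3 (0.0607) or treated replicate 1 (0.0528) or 2 (0.0837) and after median-of-ratios scaling (0.201).

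POU2F2 had the largest change of the 10 factors, and its direction split the lines. In OCI-LY19 it went from 0.547, 0.318 and 0.309 to 5.48, 4.36 and 6.80 FPKM, or from 175, 74 and 73 reads to 1697, 1274 and 1944. Every treated library lay above every untreated one, the ratio of means was 14.2, and the log2 change was 2.22 ± 0.12 (adjusted p = 6.27e-12, limma). In SUDHL5 it went from 56.4, 56.7 and 54.6 to 119.9, 108 and 106 FPKM (log2 change 0.98 ± 0.12, adjusted p = 1.33e-06). It fell in the other lines, in OCI-LY3 from 39.4, 43.8 and 39.1 to 25.3, 29.4 and 26.5 FPKM (-0.57 ± 0.12, 0.000291), and in HT from 56.4, 55.6 and 49.6 to 29.2, 35.8 and 26.7 FPKM (-0.81 ± 0.12, 3.59e-05). The treated OCI-LY19 mean of 5.55 ± 1.22 FPKM still lay below the mean of every other line. POU2F1 fell in OCI-LY19 (7.49 ± 1.09 to 5.26 ± 0.201 FPKM, adjusted p = 0.00117) and SUDHL5 (10.9 ± 0.480 to 6.98 ± 0.199 FPKM, 0.000146), the lines in which POU2F2 rose.

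POU2AF1 had the direction of POU2F2 in OCI-LY3, HT and OCI-LY19. It fell in HT from 239, 189.8 and 232 to 121, 113 and 122 FPKM (log2 change -0.88 ± 0.10, adjusted p = 3.46e-06, limma) and in OCI-LY3 from 59.2, 62.4 and 58.2 to 41.7, 40.5 and 41.4 FPKM (-0.53 ± 0.10, 0.000179). In OCI-LY19 it rose from 11.97, 16.98 and 14.6 to 21.4, 20.4 and 26.3 FPKM (0.62 ± 0.10, 3.19e-05). The groups did not overlap in any of these lines. In SUDHL5, where POU2F2 rose, POU2AF1 was at 78.9 ± 0.527 and 69.2 ± 1.97 FPKM (adjusted p = 0.164), also without overlap. There it passed as lower on the TPM scale (0.048) and in the fit of that line alone (0.00173). POU2AF1 spans chr11:111352252-111455630 and POU2F2 chr19:42086110-42196585, both on the minus strand, and POU2AF1 exons overlap those of 1 gene on the other strand.

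ETS1 fell in OCI-LY19, OCI-LY3 and HT. It went from 16.8, 16.6 and 13.2 to 5.46, 5.80 and 3.75 FPKM in OCI-LY19, the largest fall of any factor at 24 h (log2 change -1.47 ± 0.10, adjusted p = 4.54e-10, limma). It went from 54.1, 59.9 and 51.5 to 40.6, 42.8 and 38.9 FPKM in OCI-LY3 (-0.43 ± 0.10, 0.00151) and from 59.8, 58.9 and 63.0 to 40.9, 43.1 and 45.2 FPKM in HT (-0.48 ± 0.10, 0.0013). No groups overlapped in these lines, whereas in SUDHL5 they did, at 37.0 ± 0.953 and 38.2 ± 0.595 FPKM (adjusted p = 0.796). The related ETS2 also fell in OCI-LY19, from 26.8 ± 2.89 to 7.46 ± 1.83 FPKM (-1.73 ± 0.12, 6.37e-10), and in OCI-LY3, from 12.1 ± 0.904 to 9.02 ± 1.12 FPKM (-0.39 ± 0.12, 0.0107), a call lost with a pseudocount of 0.1 (0.0995). ETS1 spans chr11:128458761-128587558 on the minus strand.

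SPI1 rose in OCI-LY19 and SUDHL5, the lines with its lowest and highest untreated levels. It went from 12.99, 21.2 and 15.8 to 26.1, 38.6 and 28.5 FPKM in OCI-LY19 (log2 change 0.87 ± 0.14, adjusted p = 3.22e-05, limma) and from 62.2, 60.2 and 59.6 to 119, 119 and 113 FPKM in SUDHL5 (0.94 ± 0.14, 3.05e-05), with no overlap in either line. In OCI-LY3 it was at 43.9 ± 6.31 and 43.6 ± 1.74 FPKM. In HT it went from 44.1 ± 3.26 to 37.8 ± 3.96 FPKM, which did not pass (adjusted p = 0.27). With the replicate number as a block, as the numbers pair the HT samples, it passed as lower (adjusted p = 0.0237, over a range of 0.0237 to 0.532 among all alternatives). SPI1 spans chr11:47354860-47378576 on the minus strand.

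SPI1 is also a myeloid factor, and the sum of myeloid markers rose where it rose and, at low levels, in OCI-LY3. The summed level of 6 markers (CD14, LYZ, CSF1R, MPO, ITGAM and CSF3R) was 5.98 to 9.83 FPKM at 0 h and 20.00 to 33.2 FPKM at 24 h in OCI-LY19, with 0 of the 6 at 0 in every library. In SUDHL5 it was 0.299 to 0.466 and then 5.28 to 6.24 FPKM, with 1 of the 6 at 0 in every untreated library. In OCI-LY3, where SPI1 did not pass, it was 0.0821 to 0.156 and then 0.240 to 0.674 FPKM. It did not exceed 0.354 FPKM in any HT library. The sum was 6.84 to 15.5 FPKM in OCI-LY19S and 10.3 to 26.3 FPKM in OCI-LY19R, groups that overlapped, where SPI1 did not pass. Of 3 markers tested between these cultures, 0 passed in limma, where 3.11% of all genes passed as higher. At an unadjusted p below 0.05, 2 were higher. Of 3 of these markers tested in limma, 3 rose in OCI-LY19, 2 in SUDHL5, 1 in OCI-LY3 and 0 in HT. At 1 FPKM or more in every library were 3 of the 6 in treated and 2 in untreated OCI-LY19, and 2 in treated and 0 in untreated SUDHL5. The filter on low values thus favoured markers that were high in treated groups, so the OCI-LY19 and SUDHL5 counts are not a test of a rise. Of all genes tested, 34.5%, 18.6%, 40.4% and 22.9% rose, in that order. In HT 0 rose also at an unadjusted p below 0.05 and with voom on recovered reads. The HT levels were too low for that count to say much. LYZ rose from 4.32 ± 1.76 to 12.1 ± 2.29 FPKM and ITGAM from 0.0687 ± 0.0488 to 10.4 ± 5.75 FPKM in OCI-LY19, while CD14, CSF3R and MPO had means below 1 FPKM there in both groups. The part of these markers in the SPI1 result was not tested. SPIB, the relative of SPI1 found in B cells, rose in SUDHL5 (20.2 ± 0.222 to 35.3 ± 1.98 FPKM, adjusted p = 0.000207, limma) and fell in HT (30.1 ± 1.70 to 19.5 ± 4.35 FPKM, 0.00229). In OCI-LY19, where SPI1 rose, SPIB fell (2.30 ± 0.728 to 0.9996 ± 0.304 FPKM, log2 change -0.71 ± 0.14, 0.000243).

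The summed level of T and NK cell markers was higher at 24 h in SUDHL5, and also in OCI-LY3 and HT, where no factor rose. The sum of 7 such markers was 4.38 to 4.96 FPKM at 0 h and 16.5 to 18.9 FPKM at 24 h, with CD3D at 0.728 ± 0.0819 and 5.40 ± 1.06 FPKM and CD3E at 2.28 ± 0.302 and 8.09 ± 0.372 FPKM. CD2, CD7 and GNLY had means below 1 FPKM in both groups. In OCI-LY3 the sum was 0.815 to 1.65 FPKM at 0 h and at least 2.38 FPKM in each library at 24 h. It was 0.353 to 0.634 FPKM at 0 h and 1.72 to 2.20 FPKM at 24 h in HT, and 6.74 to 7.41 FPKM at 0 h and 4.52 to 6.35 FPKM at 24 h in OCI-LY19. Of 4 of these markers tested, 3 rose in SUDHL5, 2 in OCI-LY3, 1 in HT and 0 in OCI-LY19 in limma. At 1 FPKM or more in every library were 4 of the 7 in treated SUDHL5, but at most 1 in each other group of the 4 lines. The filter on low values thus let markers in largely through treated SUDHL5, so the SUDHL5 count is not a test of a rise. Of all genes tested, 18.6%, 40.4%, 22.9% and 34.5% rose, in that order, so the counts in OCI-LY3 and HT lay near these shares. In OCI-LY19 0 rose also at an unadjusted p below 0.05 and with voom on recovered reads, which called 1 lower. The sum of T and NK markers was 10.4 to 12.5 FPKM in OCI-LY19S and 13.2 to 17.4 FPKM in OCI-LY19R, without overlap. The 1 marker tested there did not pass in limma, though it was higher at an unadjusted p below 0.05. The sum of 5 stromal, epithelial and endothelial markers in SUDHL5 was 2.02 to 2.17 FPKM at 0 h and 4.17 to 4.95 FPKM at 24 h. The part of these markers in the SUDHL5 results was not tested.

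BACH2 passed in 1 line. It fell in OCI-LY3 from 10.7, 11.9 and 12.99 to 9.19, 8.73 and 6.92 FPKM, with no overlap (log2 change -0.48 ± 0.18, adjusted p = 0.0313, limma). That call was lost without untreated replicate 2 (0.0635), untreated replicate 3 (0.102) or treated replicate 3 (0.137), and with no filter on low values (0.0718). In HT it was at 4.04, 6.73 and 2.64 and then 3.07, 4.28 and 2.89 FPKM (adjusted p = 0.317), and it passed as lower without untreated replicate 3 (0.0176, over a range of 0.0176 to 0.952). It was at 6.55 ± 0.630 and 7.68 ± 0.744 FPKM in OCI-LY19 (adjusted p = 0.362) and at 12.7 ± 0.207 and 13.1 ± 0.406 FPKM in SUDHL5 (0.885). BACH1, the related factor found in many tissues, rose in HT from 2.32 ± 0.179 to 4.88 ± 1.35 FPKM (2.3e-05) and in OCI-LY19 from 6.22 ± 0.408 to 10.6 ± 1.25 FPKM (2.64e-05). In OCI-LY3 BACH1 went from 5.44 ± 0.222 to 7.05 ± 0.333 FPKM (0.0171), a call lost without untreated replicate 3 (0.0566) or treated replicate 1 (0.0628) and after median-of-ratios scaling (0.584). BACH2 spans chr6:89926529-90296908 on the minus strand, and its exons overlap those of 1 gene on the other strand.

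The difference between the lines' responses was tested by interaction. For 9 of the 10 factors the 24 h change differed among the 4 lines (moderated F test, limma, Benjamini-Hochberg adjusted), where 72.2% of all genes tested did. Of these, IKZF3 was at 0.129 ± 0.194 FPKM in untreated OCI-LY19, too low for a fall to show there. BACH2 did not pass (adjusted p = 0.0853) but did when HT untreated replicate 2 (0.0135) or 3 (0.00622) was left out. It also passed with the replicate number as a block (0.0256), after median-of-ratios scaling (0.0149) or quantile normalization (0.0296), and with voom on recovered reads (0.00889). No factor differed in its response between OCI-LY3 and HT, while 29.4% of all genes did. At an unadjusted p below 0.05 there were 3, and voom on recovered reads called 2. POU2AF1 came nearest (OCI-LY3 minus HT 0.35 ± 0.14 in log2, adjusted p = 0.0734). After median-of-ratios scaling EBF1 (0.00902) and IKZF1 (0.00515) passed in that pair, as did IKZF1 with the replicate block (0.0112), POU2AF1 without HT untreated replicate 2 (0.0203) and PAX5 without HT treated replicate 2 (0.0445). The counts in the other pairs were 8 of 10 for OCI-LY3 with OCI-LY19 (47.7% of all genes), 7 for OCI-LY3 with SUDHL5 (49.4%), 8 for HT with OCI-LY19 (45.2%), 8 for HT with SUDHL5 (37.0%) and 6 for OCI-LY19 with SUDHL5 (43.9%). TCF3 counted in 3 of these pairs, IKZF3 in 3 and BACH2 in 1, and 5 of those 7 calls were lost when a single library was left out, up to an adjusted p of 0.126 for TCF3 in HT with OCI-LY19 without OCI-LY19 untreated replicate 2.

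The PAX5 response in SUDHL5 differed from that in each other line. The difference from SUDHL5 was -0.91 ± 0.15 for OCI-LY3, -1.15 ± 0.15 for HT and -1.09 ± 0.15 for OCI-LY19, and those 3 lines did not pass as different from each other. POU2F2 differed in 5 of 6 pairs, all but OCI-LY3 with HT: its response in OCI-LY19 exceeded that of SUDHL5 (OCI-LY19 minus SUDHL5 1.24 ± 0.16), and the difference was -3.03 ± 0.16 for HT minus OCI-LY19 and -2.80 ± 0.16 for OCI-LY3 minus OCI-LY19. SPI1 gave no difference beyond error between OCI-LY19 and SUDHL5 (-0.07 ± 0.20, adjusted p = 0.822, limma), nor did TCF3 (0.11 ± 0.23, 0.733). ETS1 and EBF1 each differed in 5 of 6 pairs, again all but OCI-LY3 with HT. For EBF1 the pair of OCI-LY3 with OCI-LY19 was lost after quantile normalization (0.192), and for ETS1 the pair of OCI-LY3 with SUDHL5 (0.0566).

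In OCI-LY19R, ETS1 and POU2AF1 were lower than in OCI-LY19S. Of the 8 factors above the filter on low values, these 2 passed as lower and 0 as higher (1 was higher at an unadjusted p below 0.05, and voom on recovered reads called 0 higher and 3 lower), where 2.34% of the 12785 genes tested passed as lower and 3.11% as higher (5.44% in either direction). ETS1 was at 19.7, 14.5 and 12.3 FPKM in OCI-LY19S and at 4.77, 2.96 and 2.05 FPKM in OCI-LY19R, a log2 difference of -1.98 ± 0.26 (adjusted p = 0.0127, limma). POU2AF1 was at 14.3, 11.6 and 8.19 and then 5.72, 4.62 and 4.46 FPKM (-1.03 ± 0.19, 0.0318). For both, every OCI-LY19R library lay below every OCI-LY19S library; 4 of the 8 factors tested did not overlap, where 32.7% of all genes tested did not. Each call rested on few samples. ETS1 no longer passed without OCI-LY19S replicate 2 (0.0562) or OCI-LY19R replicate 2 (0.0755), and POU2AF1 without OCI-LY19S replicate 2 (0.111) or OCI-LY19R replicate 1 (0.057), 2 (0.142) or 3 (0.121). With no filter on low values neither passed (0.0672 and 0.119).

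The remaining factors did not pass between OCI-LY19R and OCI-LY19S. TCF3 was at 189, 185 and 150.3 FPKM in OCI-LY19S and 130.3, 102 and 98.7 FPKM in OCI-LY19R, without overlap (log2 difference -0.66 ± 0.15, adjusted p = 0.0506, limma). It passed without OCI-LY19R replicate 1 (0.0462) and after median-of-ratios scaling (0.0396), over a range of 0.0239 to 0.219. PAX5 was at 49.9 ± 1.39 and 39.2 ± 4.46 FPKM (adjusted p = 0.104), also without overlap. EBF1 was at 25.3 ± 4.26 and 20.3 ± 3.82 FPKM (0.318), and IKZF1 at 6.11 ± 1.79 and 4.19 ± 0.895 FPKM (0.245). SPI1 was at 31.7 ± 4.95 and 42.5 ± 6.92 FPKM (0.183) and BACH2 at 3.34 ± 0.638 and 2.59 ± 0.855 FPKM (0.424). POU2F2 and IKZF3 were under the filter and not tested. POU2F2 was at 0.372, 0.172 and 0.290 FPKM in OCI-LY19S (62, 32 and 320 reads) and 0.590, 0.910 and 0.681 FPKM in OCI-LY19R (179, 218 and 147 reads), without overlap. IKZF3 was at 0.0985 ± 0.0236 and 0.0614 ± 0.0151 FPKM.

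The authors' deposited table for this contrast, whose signs were those of OCI-LY19R minus OCI-LY19S for 2178 of its 2178 genes with an adjusted p below 0.05, called more of the factors. It gives, in the authors' deposited table, a log2 fold change of -2.31 for ETS1 (adjusted p = 3.88e-14), -1.26 for POU2AF1 (1.15e-07), -0.73 for TCF3 (0.000246) and -0.42 for PAX5 (0.0248). The authors' deposited table also gives 1.31 for POU2F2 (0.000185), the single factor listed as higher below 0.05. In the authors' deposited table EBF1 (0.211), IKZF1 (0.0823), IKZF3 (0.36), SPI1 (0.265) and BACH2 (0.356) lie above 0.05.

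**Figure D3:**
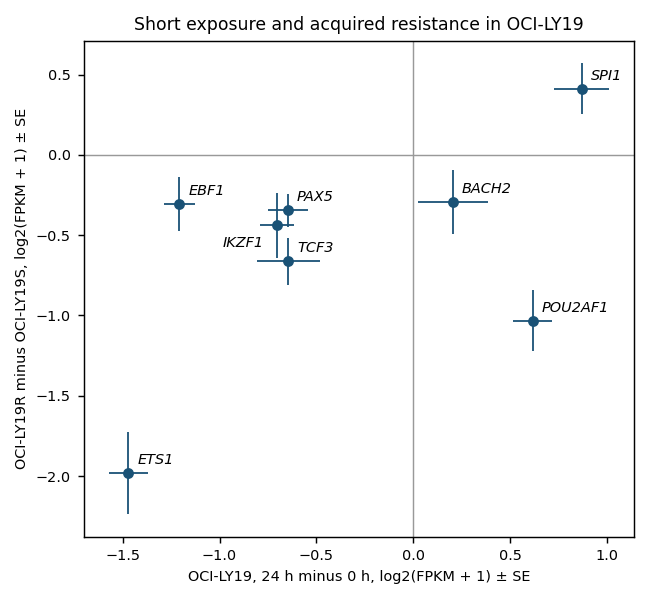
Change of each factor after 24 h in OCI-LY19 (x axis) and difference between OCI-LY19R and OCI-LY19S (y axis), both in log2(FPKM + 1) ± SE, for the 8 factors tested in both tables. ETS1 is lowest on both axes, SPI1 highest on both, and POU2AF1 lies to the right and below.

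The short exposure and the resistant culture share no libraries and can be set side by side. ETS1 had the largest fall in both, with a log2 change of -1.47 ± 0.10 at 24 h and a difference of -1.98 ± 0.26 in OCI-LY19R. POU2AF1 had opposite signs, at 0.62 ± 0.10 after 24 h and -1.03 ± 0.19 in OCI-LY19R. EBF1, with a change of -1.21 ± 0.08 at 24 h, differed by -0.31 ± 0.17 in OCI-LY19R, which did not pass. The contrast between the tables was not tested, since each was normalized on its own.

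Genes that these factors are known to activate fell more often than they rose in OCI-LY3 and HT. Of 16 such genes tested, 1 rose and 11 fell in OCI-LY3, 2 rose and 7 fell in HT, 6 rose and 6 fell in OCI-LY19, and 9 rose and 0 fell in SUDHL5. The shares of all genes that rose and fell were 40.4% and 14.3%, 22.9% and 9.41%, 34.5% and 23.7%, and 18.6% and 19.9%, in that order. In SUDHL5 none fell at an unadjusted p below 0.05 or with voom on recovered reads either (0 in each). Their median log2 change was -0.50, -0.17, 0.00 and 0.48, beside 0.16, 0.06, 0.08 and 0.00 for all genes. In OCI-LY3 the inhibitory receptor gene CD22 fell from 172 ± 30.8 to 59.9 ± 10.2 FPKM, MS4A1 (CD20) from 386 ± 65.9 to 195 ± 25.9 FPKM and the B cell receptor gene CD79B from 122 ± 10.5 to 65.5 ± 15.0 FPKM. CD22 rose in OCI-LY19 (32.9 ± 5.62 to 79.7 ± 14.2 FPKM) and SUDHL5 (70.9 ± 1.42 to 93.7 ± 5.73 FPKM), and CD79B fell in HT (130.2 ± 4.08 to 80.5 ± 20.5 FPKM) and rose in SUDHL5 (115 ± 4.55 to 174 ± 13.1 FPKM). The CD22 call in SUDHL5 was lost on the TPM scale (adjusted p = 0.117, limma), with no filter and when any 1 library of that line other than treated replicate 2 was left out. MS4A1, which fell in OCI-LY3, rose in HT, from 76.0 ± 2.82 to 134 ± 11.4 FPKM (adjusted p = 0.000245, limma), and in SUDHL5, from 44.9 ± 1.40 to 109.6 ± 2.76 FPKM (6.83e-07). CD79A fell in OCI-LY3 (565 ± 49.0 to 369 ± 38.2 FPKM), in HT (634 ± 18.2 to 455 ± 6.89 FPKM) and most in OCI-LY19 (159.9 ± 9.61 to 39.6 ± 6.41 FPKM, log2 change -1.996 ± 0.09, adjusted p = 1.33e-12), and was at 696 ± 4.69 and 689 ± 14.4 FPKM in SUDHL5.

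The surrogate light chain genes IGLL1 and VPREB1, which E proteins and EBF1 switch on in early B cells, fell in OCI-LY19. IGLL1 went from 508 ± 129 to 55.4 ± 43.5 FPKM (log2 change -3.41 ± 0.47, adjusted p = 3.53e-06, limma) and VPREB1 from 159 ± 22.3 to 47.2 ± 24.5 FPKM (-1.84 ± 0.33, 7.68e-05). In SUDHL5 the genes of this list that rose most, beside MS4A1, were CD72 (10.8 ± 0.385 to 33.04 ± 2.44 FPKM) and CIITA, the regulator of MHC class II (4.32 ± 0.116 to 10.3 ± 0.0899 FPKM). Between OCI-LY19R and OCI-LY19S, 4 of 14 genes of this list were higher and 3 lower, where 3.11% and 2.34% of all genes tested were. VPREB3 was at 13.8 ± 3.35 FPKM in OCI-LY19S and 0.525 ± 0.191 in OCI-LY19R (-3.26 ± 0.17, 0.000815). MS4A1 was at 2.01 ± 0.721 and 10.01 ± 4.25 FPKM (0.0245), which no longer passed without OCI-LY19S replicate 2 (0.0582) or 3 (0.062) or OCI-LY19R replicate 2 (0.112) or 3 (0.0668).

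**Figure D4:**
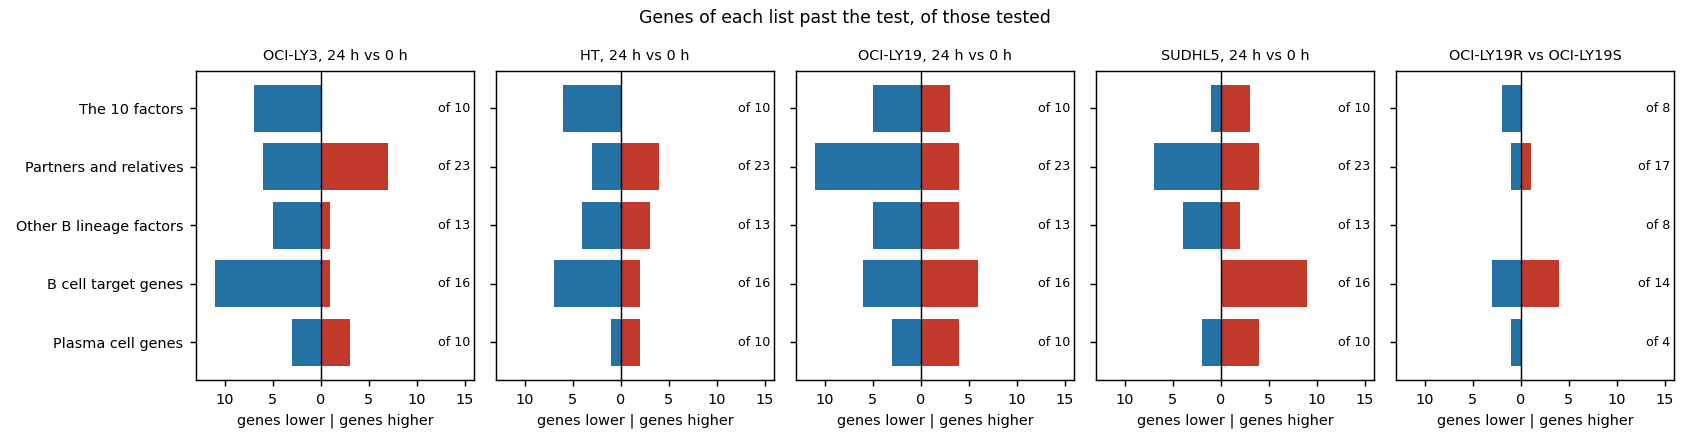
Number of genes lower (blue, to the left) and higher (red, to the right) past the adjusted threshold in each comparison for the 10 factors and 4 related gene lists, with the number tested at the right. The target genes show 11 lower and 1 higher in OCI-LY3 and 9 higher and 0 lower in SUDHL5.

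Partners and relatives of the factors fell more often than they rose in OCI-LY19. Of 23 tested, 7 rose and 6 fell in OCI-LY3, 4 rose and 3 fell in HT, 4 rose and 11 fell in OCI-LY19, and 4 rose and 7 fell in SUDHL5. Of all genes tested, 23.7% fell and 34.5% rose in OCI-LY19, 14.3% and 40.4% in OCI-LY3, 9.41% and 22.9% in HT, and 19.9% and 18.6% in SUDHL5. The list's median log2 change was 0.04, 0.00, -0.10 and -0.11, beside 0.16, 0.06, 0.08 and 0.00 for all genes. IRF8, which acts with SPI1, fell in OCI-LY3 (52.3 ± 3.57 to 31.8 ± 1.37 FPKM, adjusted p = 0.000783, limma) and OCI-LY19 (31.2 ± 2.63 to 11.2 ± 4.28 FPKM, 1.64e-07). MAFK, a small MAF partner of BACH factors, fell in OCI-LY3 (15.50 ± 1.997 to 8.24 ± 0.171 FPKM, 0.000239) and OCI-LY19 (42.4 ± 9.39 to 22.9 ± 4.62 FPKM, 0.000154), and FLI1, an ETS factor, rose in SUDHL5 (3.45 ± 0.179 to 6.18 ± 0.277 FPKM, 5.26e-08) and HT (0.0481 ± 0.00939 to 0.216 ± 0.0404 FPKM, 0.0135) but fell in OCI-LY19 (14.8 ± 0.572 to 11.9 ± 1.11 FPKM, 0.000421). The HT call was lost without treated replicate 3 (0.0585) and after quantile normalization (0.126). In OCI-LY19R, ID2 was lower than in OCI-LY19S (46.7 ± 4.50 and 20.3 ± 1.22 FPKM, log2 difference -1.16 ± 0.10, 0.00404), 1 of 2 genes of this list to pass among 17 tested. The other was the ETS factor ETV6, higher in OCI-LY19R (12.01 ± 0.461 and 16.3 ± 0.660 FPKM, 0.0323), a call lost in 5 of the 6 fits that left out a library, with adjusted p up to 0.169.

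Among 13 other B lineage and germinal center factors tested, 1 rose and 5 fell in OCI-LY3, 3 rose and 4 fell in HT, 4 rose and 5 fell in OCI-LY19, and 2 rose and 4 fell in SUDHL5. The shares of all genes that rose and fell were 40.4% and 14.3%, 22.9% and 9.41%, 34.5% and 23.7%, and 18.6% and 19.9%, in that order. Their medians were -0.16, 0.03, 0.03 and -0.11, and in OCI-LY19R against OCI-LY19S 0 of 8 passed in limma's test, where 3 had an unadjusted p below 0.05 and voom on recovered reads called 1. BCL6, the germinal center repressor, fell in OCI-LY3 from 78.2 ± 6.24 to 22.9 ± 0.116 FPKM (log2 change -1.72 ± 0.12, adjusted p = 8.24e-10, limma), in HT from 131 ± 6.26 to 61.3 ± 7.21 FPKM (-1.09 ± 0.12, 1.94e-06) and in SUDHL5 from 102 ± 1.90 to 76.1 ± 2.30 FPKM (-0.42 ± 0.12, 0.00754). It was at 1.59 ± 0.580 and 1.83 ± 0.382 FPKM in OCI-LY19. MEF2C fell in OCI-LY3 (23.3 ± 3.02 to 11.8 ± 0.880 FPKM), HT (14.9 ± 0.761 to 9.58 ± 0.586 FPKM) and OCI-LY19 (15.8 ± 1.36 to 10.03 ± 0.827 FPKM). FOXO1 rose in OCI-LY19 from 6.39 ± 0.254 to 25.5 ± 5.16 FPKM (2.86e-11) while MYB fell from 65.3 ± 8.85 to 22.00 ± 7.18 FPKM (2.47e-08). In HT FOXO1 fell, from 20.7 ± 1.38 to 13.6 ± 0.669 FPKM (-0.57 ± 0.10, 0.00038).

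Of the 10 plasma cell genes, 3 rose and 3 fell in OCI-LY3, 2 rose and 1 fell in HT, 4 rose and 3 fell in OCI-LY19, and 4 rose and 2 fell in SUDHL5. Of all genes tested, 40.4% rose and 14.3% fell in OCI-LY3, 22.9% and 9.41% in HT, 34.5% and 23.7% in OCI-LY19, and 18.6% and 19.9% in SUDHL5. The list's medians were -0.04, 0.15, 0.27 and 0.31, beside 0.16, 0.06, 0.08 and 0.00 for all genes. PRDM1, which PAX5 and BACH2 repress, rose in SUDHL5 from 0.114 ± 0.0184 to 1.43 ± 0.0774 FPKM (log2 change 1.12 ± 0.07, adjusted p = 3.1e-10, limma). It was at 4.68 ± 0.638 and 5.36 ± 0.557 FPKM in OCI-LY19 (0.0552), and had means below 1 FPKM in OCI-LY3 and HT. SDC1 (CD138) rose in OCI-LY19 from 0.710 ± 0.425 to 17.7 ± 1.93 FPKM (3.48 ± 0.12, 2.19e-14) and in SUDHL5 from 1.90 ± 0.285 to 7.18 ± 0.599 FPKM (1.498 ± 0.12, 1.16e-08), and in OCI-LY3 it went from 0.0387 ± 0.0583 to 0.373 ± 0.101 FPKM (0.40 ± 0.12, 0.00876), a call lost after quantile normalization (0.0837). XBP1 fell in OCI-LY19 from 72.7 ± 8.27 to 26.5 ± 6.04 FPKM (1.56e-08), so these genes did not move as 1 group there. In OCI-LY3 XBP1 went from 6.44 ± 0.326 to 4.65 ± 0.992 FPKM (0.0107), a call lost without treated replicate 1 (0.0943). IRF4 rose in OCI-LY19 from 3.25 ± 0.646 to 5.38 ± 0.297 FPKM (0.000125), a call lost with a pseudocount of 0.1 (0.167). Its means stayed below 1 FPKM in the other lines. In OCI-LY19R, CD38 was the 1 gene of 4 tested to pass, at 14.8 ± 0.504 FPKM in OCI-LY19S and 5.25 ± 0.945 FPKM in OCI-LY19R (-1.35 ± 0.12, 0.00509).

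Over the 8 group means of the first table, some factors ran alike. IKZF3 and POU2F2 had a Pearson r of 0.93 in log2(FPKM + 1), IKZF3 and POU2AF1 0.92, POU2F2 and SPI1 0.91, and IKZF1 and ETS1 0.88. EBF1 and SPI1 ran opposite, with an r of -0.86, and the factor most like PAX5 was EBF1 at 0.60. The tested genes most like a factor were MGAT3 (r = 0.98) and TFEB (0.97) for POU2F2, SEC14L1 (0.99) and CHPF (0.99) for IKZF3, COX6B1 (0.99) and ATP5F1E (0.98) for ETS1, and STK11 (0.97) and PPP1R9B (0.97) for SPI1. For EBF1 they were PPP1R15B (0.98) and URB2 (0.98). These values describe 8 points that come from 4 cell lines and share their libraries. IKZF1, IKZF3, POU2AF1, POU2F2, SPI1 and ETS1 had their lowest means in both OCI-LY19 groups, so that line weighs heavily in their r values. The genes most like a factor were picked as the highest r among all tested genes with a group mean of at least 5 FPKM.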

How the data were processed

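RNA was poly(A)-selected for a directional library kit, per the labels' protocols. The submitters' processing notes name Trimmomatic, STAR, featureCounts and hg38; for their versions, the annotation and the strand setting, the sources used here give nothing. The authors deposited FPKM for 30 libraries in separately normalized tables, one for the 4 lines (24 libraries) and one for OCI-LY19S and OCI-LY19R (6). The latter also holds the authors' log2 fold changes, p-values, standard-error and test-statistic scores and a mean normalized signal per gene, per the file headers. Titles of the 24 h libraries also carry a control tag; the treatment label was followed. The 10 factors and the gene lists were chosen with earlier results of these data known.

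Gene IDs joined the tables. Tests were two-sided, with limma 3.58.1 (R 4.3.3; linear model, moderated with a mean trend), on log2(FPKM + 1) over genes with at least 1 FPKM in at least 3 libraries: 17645 in the first table (24 libraries in 1 fit, 16 residual degrees of freedom) and 12785 in the second (4). Adjusted p-values are Benjamini-Hochberg over all genes tested, with a threshold of 0.05; scripts were tested on simulated data. Whole reads were recovered from the FPKM steps. For genes whose versioned ID is in GENCODE 29, 100.0% of values were whole to within 0.01 reads in every library; 25442 genes kept those lengths. For 19201 others, 8 of the 10 factors among them, the length was solved as the smallest that gives whole reads. HT replicate numbers were taken as pairing, since same-numbered samples deviated together (r = 0.17, 0.32 and 0.35). In each other comparison at least 1 such r was below 0.1. Same-numbered samples also share a name prefix in OCI-LY3 and HT, and in part in OCI-LY19. Its meaning is not given, and it was not used to set the pairing. The reported HT results nevertheless come from the fit without pairing, and the paired fit is the replicate block among the alternatives. All 10 factors are named; from each list and comparison, up to 3 called genes with the largest change and a mean of at least 5 FPKM, plus 13 textbook partners and targets, 1 of which is not reported here. Further comparisons of genes so named were added after their values were seen. Alternatives were another pseudocount, filter, scaling, block, library-name tag, a fit on 1 line alone, recovered reads, and each library left out.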

Additional observations from a re-analysis of the deposited data

Results flagged for a closer look

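The 24 h change of 9 factors differed among the 4 lines in the moderated F test of the response itself (limma, Benjamini-Hochberg adjusted over 17645 genes), as did that of 72.2% of all genes tested. The adjusted p was 4.28e-11 for POU2F2, which rose in OCI-LY19 and SUDHL5 and fell in OCI-LY3 and HT, and 3.58e-06 for PAX5, which rose in SUDHL5 and fell in the other lines. It was 2.56e-07 for POU2AF1, which rose in OCI-LY19 and fell in OCI-LY3 and HT. For ETS1 (3.28e-07), EBF1 (9.52e-07) and IKZF1 (2.83e-05) the fall was largest in OCI-LY19. It was 4.69e-05 for SPI1, 0.00627 for IKZF3 and 0.0192 for TCF3. IKZF3 was too low in untreated OCI-LY19 for a fall to show there. The TCF3 call was lost after median-of-ratios scaling (0.07) and with voom on recovered reads (0.0536), and the IKZF3 call with a pseudocount of 0.1 (0.0667). Groups of 3 were too small for a check of single outlying libraries.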

How the results depend on the processing

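Of 27 calls of a factor between 2 groups, 22 held under every alternative that was run, and 0 changed sign. Median-of-ratios scaling gave 4737 genes higher and 4461 lower in OCI-LY3 (7128 and 2522 in the reported fit), and quantile normalization gave 4344 and 4197 there and 2470 higher in HT (4038). With a minimum of 5 FPKM, which tests fewer genes, 4548 were higher in OCI-LY3, 3521 in OCI-LY19 (6093), 10242 differed among the untreated lines (15976), and 177 were higher and 191 lower in OCI-LY19R (397 and 299). Voom on recovered reads gave 4188 lower in OCI-LY3 and 456 lower in OCI-LY19R. Fitting a line alone gave 968 genes lower in HT (1661), and 5 factors higher and 3 lower in SUDHL5 (3 and 1). The SUDHL5 factors so added were IKZF1 (adjusted p = 0.00332) and IKZF3 (0.00243) as higher, and EBF1 (0.0185) and POU2AF1 (0.00173) as lower, in limma. TPM gave 2 factors lower in SUDHL5. With no filter 75 genes were higher and 55 lower in OCI-LY19R, with 0 factors. The cause of these shifts was not tested. The replicate block gave 136 genes higher and 140 lower in OCI-LY19R. Among factors, the block added IKZF3 in OCI-LY3 (adjusted p = 0.00461) and OCI-LY19 (0.00503), SPI1 in HT (0.0237) and IKZF1 in SUDHL5 (0.0205), in limma; it took away no call of a factor between 2 groups. Same-numbered samples correlated at -0.01, 0.09 and 0.36 in OCI-LY3, 0.36, 0.26 and 0.04 in OCI-LY19, -0.02 to -0.01 in SUDHL5 and -0.11 to 0.12 in OCI-LY19S and OCI-LY19R. Leaving out each library gave 32 to 636 genes higher, 33 to 493 lower and 0 to 2 factors lower in OCI-LY19R: 636 and 493 without OCI-LY19S replicate 1, 50 and 56 without replicate 2, 176 higher without replicate 3, and 253 and 146, 32 and 33, and 55 and 59 without OCI-LY19R replicates 1, 2 and 3. With a term for the tag in each library's name, untreated TCF3 was lower in OCI-LY3 than in HT (log2 difference -0.50, adjusted p = 0.0385), against no call as reported. IKZF3 and POU2F2 in OCI-LY19 rest on 2 to 1944 reads per library, which limits their precision.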
